A study of Mus musculus with 9 samples.

Results

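The genes described here carry sodium, bicarbonate and water out of the urine in the kidney proximal tubule. They are Slc9a3, Slc4a4, Atp1b1, Car2, Car4, Car14, Aqp1, Cldn2 and Cldn10, chosen by name as 9 of the 52405 entries of the expression table. All 9 were detected in every library and all 9 were among the 13160 genes tested. RNA was sequenced from cells of dissociated kidney cortex of C57BL/6 mice that were bound by an antibody against prominin-1, a protein of the brush border, and held on a magnetic column. There were 3 groups with 3 libraries each, which the labels call biological replicates: sham-operated adult males, females sham-operated on postnatal day 21, and females whose ovaries were removed on postnatal day 21. The labels name no allele or drug in any group. They give neither the day of surgery of the males nor the age at which cells were taken nor the number of mice behind a library.

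The proximal tubule reclaims most of the filtered salt, bicarbonate and water. Sodium enters across the brush border in exchange for protons, the protons turn filtered bicarbonate into carbon dioxide with the help of carbonic anhydrases, and bicarbonate and sodium leave through the basolateral membrane by a cotransporter and by the sodium pump. Water follows through aquaporin channels in both membranes, and some sodium, chloride and water pass between the cells through pores made of claudins.

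Only 3 of the 9 genes differed between the groups beyond the test's threshold, and all 3 were genes of water or of paracellular passage. The water channel gene Aqp1 and the claudin gene Cldn10 were higher in both female groups than in males, and the claudin gene Cldn2 was called higher in ovariectomized females. The calls of both claudin genes in ovariectomized females depended on single libraries. Aqp1 RNA in females was 2.47 times the male level after sham surgery and 2.54 times after ovariectomy. Among the 9, none of the exchanger, cotransporter, pump or carbonic anhydrase genes passed the threshold in any comparison. None of the 9 passed it between ovariectomized and sham females.

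Because these 3 genes carry the differences, the 250 bases before each of their transcription starts are shown, as given by RefSeq on mouse build GRCm38.p6. Of the 9 genes, 8 matched an entry with 10 windows in all, and Car2 did not. Capitals mark matches to any of 6 short motifs searched: AGGTCA (a nuclear receptor unit), AGAACA (a unit of androgen and glucocorticoid receptor sites), GTTAAT (the HNF1 core), CCAAT and GGGCGG (the CCAAT and GC boxes) on both strands, and TATAAA (the TATA box) on the gene's strand. All are written 5′ to 3′ on the plus strand, on which all 3 genes lie. Cldn10 has 2 starts in RefSeq, and the gene-level values used below do not separate the transcripts from them.
Aqp1, chr6:55336049-55336298: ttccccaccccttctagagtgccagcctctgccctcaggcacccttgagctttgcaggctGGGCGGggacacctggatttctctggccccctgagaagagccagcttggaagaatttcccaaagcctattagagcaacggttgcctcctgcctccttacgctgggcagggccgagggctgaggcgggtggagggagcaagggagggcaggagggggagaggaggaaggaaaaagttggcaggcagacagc
Cldn2, chrX:139800558-139800807: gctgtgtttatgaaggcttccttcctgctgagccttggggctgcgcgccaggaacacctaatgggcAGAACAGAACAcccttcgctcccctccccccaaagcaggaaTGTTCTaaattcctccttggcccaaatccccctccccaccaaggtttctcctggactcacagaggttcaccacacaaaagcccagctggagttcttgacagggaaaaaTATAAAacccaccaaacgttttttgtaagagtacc
Cldn10, upstream start, chr14:118787621-118787870: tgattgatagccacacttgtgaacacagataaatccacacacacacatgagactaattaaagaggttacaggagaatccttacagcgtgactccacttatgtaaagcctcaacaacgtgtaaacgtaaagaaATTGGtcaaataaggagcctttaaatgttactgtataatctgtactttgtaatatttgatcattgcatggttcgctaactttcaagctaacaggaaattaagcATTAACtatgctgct
Cldn10, downstream start, chr14:118854700-118854949: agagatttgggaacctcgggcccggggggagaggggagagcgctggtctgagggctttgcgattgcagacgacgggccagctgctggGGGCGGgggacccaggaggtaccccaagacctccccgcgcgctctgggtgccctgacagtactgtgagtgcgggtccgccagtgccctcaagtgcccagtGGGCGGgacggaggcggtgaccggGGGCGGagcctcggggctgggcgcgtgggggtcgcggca

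The Aqp1 window held a single match, a GC box from 190 to 185 bases before the start, and had a GC content of 62.0%, against a median of 52.4% over 32851 mouse windows. Positions count from the RefSeq start just after base 55336298, whereas the GENCODE M21 annotation, used for gene positions below, starts Aqp1 at 55336432. In the Cldn2 window there were 3 matches to AGAACA. Of these, 2 lay on the plus strand, at -184 to -179 and -179 to -174 with a base in common, and the other on the minus strand at -143 to -138, while a TATA box stood at -35 to -30. Among all windows 16.1% held AGAACA at least once on either strand and 7.59% held the TATA box. The share of windows with several AGAACA matches was not counted. Among the 8 genes with a window, the only other with AGAACA was Car14, which has 1 match and did not differ between the groups beyond the threshold.

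The Cldn10 windows were unlike each other in composition. The upstream window had 36% GC, with a CCAAT box at -118 to -114 and the HNF1 core at -15 to -10, both on the minus strand. The downstream window reached 72.4% GC and held 3 GC boxes and no other match. The HNF1 core occurred in 6.43%, the CCAAT box in 33.8%, the GC box in 32.7% and AGGTCA in 14% of all windows. AGGTCA was absent from these 4 windows and occurred among the 8 genes with a window in 1 window, that of an internal start of Slc4a4. These matches describe letters in a short window and not binding.

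Expression is in FPKM, fragments per kilobase of transcript per M (mega) mapped fragments, a unit that accounts for gene length so that levels can be compared between genes. The depth, estimated from the steps between low values, was 21.25 to 28.75 M reads per library, and 12287 to 13115 genes reached 1 FPKM. A gene is called different when its adjusted p is under 0.05 in limma, a linear model fitted to log2(FPKM + 1) of all 13160 genes with the Benjamini-Hochberg adjustment over all of them. Fold changes from it are given on that log2 scale with the standard error (SE) or the 95% confidence interval. The labelled cell type was checked by 10 proximal tubule markers, which summed to 5613 to 7954 FPKM per library with none at 0 throughout, and markers of other segments were present too. A set of 26 distal markers, of the thick ascending limb, the convoluted segment after it and the collecting duct, summed to 2450, 3839 and 3529 FPKM in males. Sham female libraries held 2313, 1547 and 1450, and those after ovariectomy 2480, 1701 and 2175. Male replicate 1 stood apart from the other 2 males by this sum and lay within the female range. Results that change without it are given with and without it. In bulk RNA such as this, fewer cells of a type and less RNA per cell cannot be told apart.

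**Figure D1:**
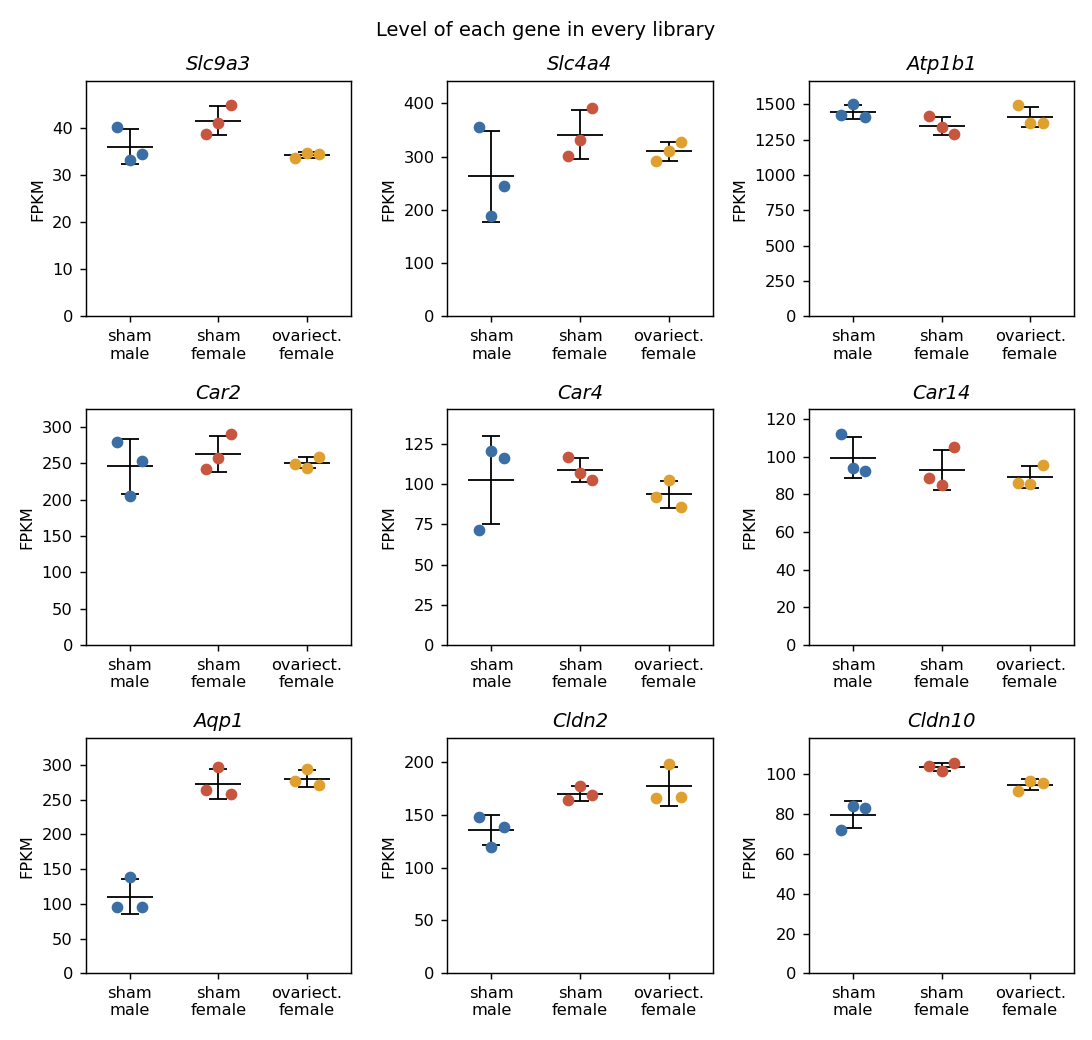
Level of each of the 9 genes in FPKM (y axis, from 0) in every library, with the 3 groups on the x axis. Points are libraries, the long bar is the mean and the whiskers are 1 SD over 3 libraries. Only for Aqp1 do the male points lie far below both female groups, at 95.6 to 139.5 against 258 to 298 FPKM.

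The entry of sodium was read from Slc9a3 (ENSMUSG00000036123, GENCODE M21 on GRCm38, chromosome 13, 74121457 to 74169442, plus strand), which encodes NHE3, the sodium-hydrogen exchanger of the brush border. It stood at 40.2, 33.2 and 34.4 FPKM in males, 38.6, 41.0 and 44.7 in females after sham surgery and 33.5, 34.6 and 34.3 after ovariectomy. Sham females were highest and separate from ovariectomized females, while the males overlapped with both. Group means were 35.9 ± 3.75, 41.4 ± 3.09 and 34.2 ± 0.566 (SD, n = 3). The ovariectomized mean was 0.825 of the sham female mean, with a log2 fold change of -0.27 (95% interval -0.46 to -0.08, adjusted p = 0.555 by limma). A fit of the female groups alone with the replicate number as a block gave an adjusted p = 0.182 by limma. Sham females against males gave 0.20 (adjusted p = 0.168 by limma). Without male replicate 1 this became 0.28 (adjusted p = 0.0442 by limma), so that call rests on which males are counted. With the mean log2 level of the distal markers as a covariate the difference was 0.01.

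Bicarbonate leaves the cell through NBCe1, the sodium bicarbonate cotransporter of the basolateral membrane, encoded by Slc4a4 (ENSMUSG00000060961, chromosome 5, 88886818 to 89239653, plus strand). Its values were 356, 188 and 246 FPKM in sham males, 301, 331 and 391 in sham females and 292, 310 and 327 in ovariectomized females. The males spread over almost the whole range of the series, with male replicate 1 above most females and the other 2 males below all of them. Means were 263 ± 85.1, 341 ± 45.7 and 309.7 ± 17.2 FPKM (SD, n = 3). The difference of sham females from males was 0.41 (interval -0.03 to 0.86, adjusted p = 0.218 by limma), that of ovariectomized females from males 0.28 (adjusted p = 0.374) and that between the female groups -0.13 (adjusted p = 0.993). Without male replicate 1 the differences from males became 0.66 (adjusted p = 0.0213) and 0.52 (adjusted p = 0.0439) by limma. With the distal marker covariate they turned to -0.08 and -0.06. The order of the 3 means was thus not resolved beyond their spread.

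Atp1b1 (ENSMUSG00000026576, chromosome 1, 164437109 to 164458355, minus strand) encodes the beta 1 subunit of the Na,K-ATPase, the pump that keeps cell sodium low. It was by far the most abundant of the 9 genes. Libraries of sham males held 1423, 1501 and 1409 FPKM, those of sham females 1413, 1336 and 1290.5 and those of ovariectomized females 1491, 1366 and 1370.0. All 3 groups overlapped, and the differences of -0.10, 0.07 and -0.04 on the log2 scale (sham females from males, ovariectomized from sham females, ovariectomized females from males) had adjusted limma p-values of 0.316, 0.969 and 0.726.

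The 3 carbonic anhydrases sit in different places: Car2 (ENSMUSG00000027562, chromosome 3, 14886273 to 14900770, plus strand) encodes the enzyme of the cytosol, Car4 (ENSMUSG00000000805, chromosome 11, 84957786 to 84966044, plus strand) a lipid-anchored enzyme of the cell surface, and Car14 (ENSMUSG00000038526, chromosome 3, 95897768 to 95904691, minus strand) an enzyme that spans the membrane. Car2 was the most abundant, with 279, 205 and 253 FPKM in sham males, 242, 257 and 290.1 in sham females and 249, 244 and 258 in ovariectomized females. Every group overlapped with every other, and the lowest adjusted p of the 3 comparisons was 0.575 by limma. Car2 is also a gene of intercalated cells.

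Car4 was at 71.2, 121 and 116 FPKM in sham males, 117, 107 and 103 in sham females and 92.3, 103 and 85.9 in ovariectomized females. Male replicate 1 was the lowest of all 9 libraries and the other 2 males were among the highest. The differences were 0.12, -0.21 and -0.10 (adjusted p = 0.711, 0.959 and 0.749 by limma), in the order given for Atp1b1. Without male replicate 1, Car4 was lower in ovariectomized females than in males, at -0.34 (adjusted p = 0.0440 by limma), and the sham difference turned to -0.12 (adjusted p = 0.372). Car14 ranged from 92.4 to 112 FPKM in sham males, 85.0 to 105 in sham females and 85.2 to 95.6 in ovariectomized females. Its groups overlapped throughout, with differences of -0.10, -0.06 and -0.16 and adjusted p-values of 0.573, 0.996 and 0.341 by limma.

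Water crosses the cell through aquaporin 1, encoded by Aqp1 (ENSMUSG00000004655, chromosome 6, 55336432 to 55348555, plus strand, 1 annotated transcript). Sham males held 95.6, 139.5 and 96.2 FPKM, sham females 264, 298 and 258, and ovariectomized females 277, 294 and 270.7. The highest male was far below the lowest female, and the female groups lay on top of each other. Means were 110.4 ± 25.2, 273 ± 21.3 and 280.5 ± 12.2 FPKM (SD, n = 3). Sham females exceeded males by 1.32 on the log2 scale (interval 1.01 to 1.62, adjusted p = 0.000415 by limma) and ovariectomized females exceeded them by 1.36 (interval 1.05 to 1.66, adjusted p = 0.000264). The difference between the female groups was 0.04 (interval -0.26 to 0.35, adjusted p = 0.998). This interval leaves room for a moderate change in either direction.

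Aqp1 was called against males in all 20 alternative analyses of both comparisons, with differences of 1.23 to 1.498 for sham and 1.24 to 1.54 for ovariectomized females. With the distal marker covariate they were 1.37 (adjusted p = 0.0320) and 1.39 (adjusted p = 0.00598). Aquaporin 1 is also made in the thin descending limb, in endothelium of the vasa recta and in red cells. Summed over 5 thin limb markers, levels were 43.9 to 63.1 FPKM in males, 27.1 to 46.7 in sham females and 27.3 to 43.6 in ovariectomized females. For 7 endothelial markers the sums were 138 to 253, 42.7 to 142 and 81.3 to 137 FPKM, and for 6 red cell markers 54.2 to 92.8, 9.39 to 89.5 and 18.7 to 96.5. Among the tested genes of these 3 lists, 15 in all, none was called higher in either female group, so none of these markers rose with Aqp1. Prom1, which encodes the protein used for sorting, was higher in females as well, at 45.3 ± 8.11, 98.6 ± 26.9 and 74.4 ± 5.23 FPKM (SD, n = 3), a log2 difference of 1.085 for sham (adjusted p = 0.00671 by limma) and 0.71 for ovariectomized females (adjusted p = 0.0357) from males. Its part in the Aqp1 result was not tested.

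Aqp1 also took a larger share of aquaporin RNA in females. Of the summed FPKM of the aquaporin genes it made up 32.9% ± 3.05 in males, 64.0% ± 4.56 in sham females and 61.6% ± 4.91 in ovariectomized females (SD, n = 3). The share in the highest male, 35.98%, was below that in the lowest female, 57.4%. The denominator moved as well, since Aqp3, a basolateral channel of principal cells, was lower in females.

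Paracellular passage rests on Cldn2 (ENSMUSG00000047230, chromosome X, 139800828 to 139811386, plus strand), whose product forms a pore for small cations and water in the proximal tubule. It was at 147, 120 and 138 FPKM in sham males, 164, 177 and 169 in sham females and 165, 198 and 166 in ovariectomized females. Every male lay below every female, and the female groups overlapped. Means were 135 ± 14.2, 169.75 ± 6.79 and 177 ± 18.7 FPKM (SD, n = 3), so the ratio of means to males was 1.26 and 1.31. Ovariectomized females exceeded males by 0.38 (interval 0.17 to 0.60, adjusted p = 0.0322 by limma). Sham females were 0.33 above males (interval 0.12 to 0.55, adjusted p = 0.0627 by limma), which is not a call. The female groups differed by 0.05 (interval -0.16 to 0.27, adjusted p = 0.996).

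The Cldn2 result stood close to the threshold. Its call in ovariectomized females held in 9 of 20 alternatives and was lost without male replicate 2 or 3 or any 1 of the ovariectomized libraries (adjusted p = 0.0501 to 0.102), and the sham difference was called in 3 of 20. With the distal marker covariate the differences fell to 0.18 (adjusted p = 0.341) and 0.04 (adjusted p = 0.948).

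Cldn10 (ENSMUSG00000022132, chromosome 14, 118787908 to 118875489, plus strand) encodes claudin 10, whose splice forms make an anion pore in the proximal tubule and a cation pore in the thick ascending limb. Its libraries were at 71.9, 83.9 and 83.2 FPKM in sham males, 104, 102 and 106 in sham females and 91.8, 96.8 and 95.7 in ovariectomized females. No 2 groups overlapped: males were lowest, ovariectomized females in between and sham females highest. Means were 79.7 ± 6.71, 104 ± 2.06 and 94.7 ± 2.63 FPKM (SD, n = 3). Sham females exceeded males by 0.38 (interval 0.22 to 0.53, adjusted p = 0.00972 by limma) and ovariectomized females exceeded them by 0.25 (interval 0.10 to 0.40, adjusted p = 0.0457). The step between the female groups, -0.13 (interval -0.28 to 0.02), did not pass (adjusted p = 0.866 by limma).

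The sham call for Cldn10 held in 19 of 20 alternatives and was lost with the distal marker covariate, at a difference of 0.48 (adjusted p = 0.0906). The call in ovariectomized females held in 5 of 20 and was lost when any 1 of the 9 libraries was left out (adjusted p = 0.0589 to 0.135). Thick ascending limb markers, 7 genes, summed to 1469 to 2448 FPKM in males, 895 to 1505 in sham females and 1163 to 1619 in ovariectomized females. Of these 7 markers 3 were called lower in sham females, against 4.87% of all genes. All 7 had differences below 0 in both comparisons with males, where Cldn10 was above 0.

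As shares of all claudin RNA, Cldn2 made up 39.0% ± 4.61 in males, 47.0% ± 3.10 in sham females and 47.2% ± 4.31 in ovariectomized females, and Cldn10 22.9% ± 1.48, 28.7% ± 0.890 and 25.4% ± 0.698 (SD, n = 3). These were the leading claudin genes in every group. The other claudins that differed in sham females were lower there, as given below.

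**Figure D2:**
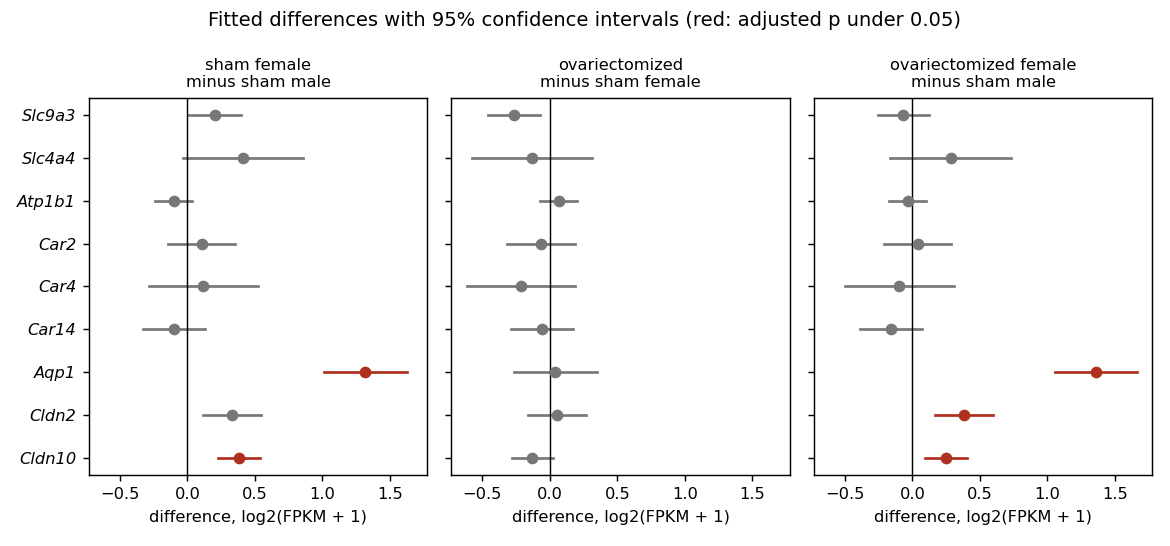
Fitted differences on the log2(FPKM + 1) scale (x axis) for the 9 genes in 3 comparisons, with 95% confidence intervals as bars and red for an adjusted p under 0.05. Aqp1 stands at 1.32 and 1.36 against males and at 0.04 between the female groups, and the next largest difference is that of Slc4a4 at 0.41.

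Counted over the 9 genes, 2 were called higher and 0 lower in sham females against sham males, where 4.28% of all tested genes were called higher and 4.87% lower. Groups did not overlap for 3 of the 9 (Aqp1, Cldn2 and Cldn10), against 30.3% of all genes, so non-overlap of 3 in 9 is near the background. Before adjustment 4 of 9 had p under 0.05, against 26.6% of all genes. The median difference of the 9 was 0.20, against -0.09 over all genes tested. Without male replicate 1 the count of called genes was 5, the others being Slc9a3, Slc4a4 and Cldn2.

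Between ovariectomized and sham females 0 of the 9 were called in limma, and 1 had an unadjusted p under 0.05, against 6.29% of all genes. Of all tested genes 0% were called higher and 0.0076% lower, the latter being the single gene Pllp, which was named after its values were seen. Same-numbered female libraries deviated together, and with the female groups alone and the replicate number as a block 6 genes were called, none of them among the 9. Libraries did not overlap for Slc9a3 and Cldn10, 2 of 9, against 12.9% of all genes, and both were lower after ovariectomy. The median of the 9 was -0.07 and that of all genes 0.01.

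For ovariectomized females against males 3 of the 9 were called higher and 0 lower, beside 5.63% and 6.19% of all genes. The same number, 3 of 9, did not overlap, against 34.1%, and 3 had an unadjusted p under 0.05, against 28.6%. The median was 0.04 for the 9 and -0.09 for all genes. The count became 1, Aqp1 alone, without male replicate 2 or 3 or any 1 of the ovariectomized libraries. The 3 comparisons share groups and are not independent of each other.

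The distal marker sum moved with sex, being higher in 2 of 3 males than in any female library. It was included as a covariate to see how each difference changes, and Aqp1 was then the only 1 of the 9 called in either comparison with males. The covariate itself overlaps with the groups, so distal content and group cannot be fully told apart.

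**Figure D3:**
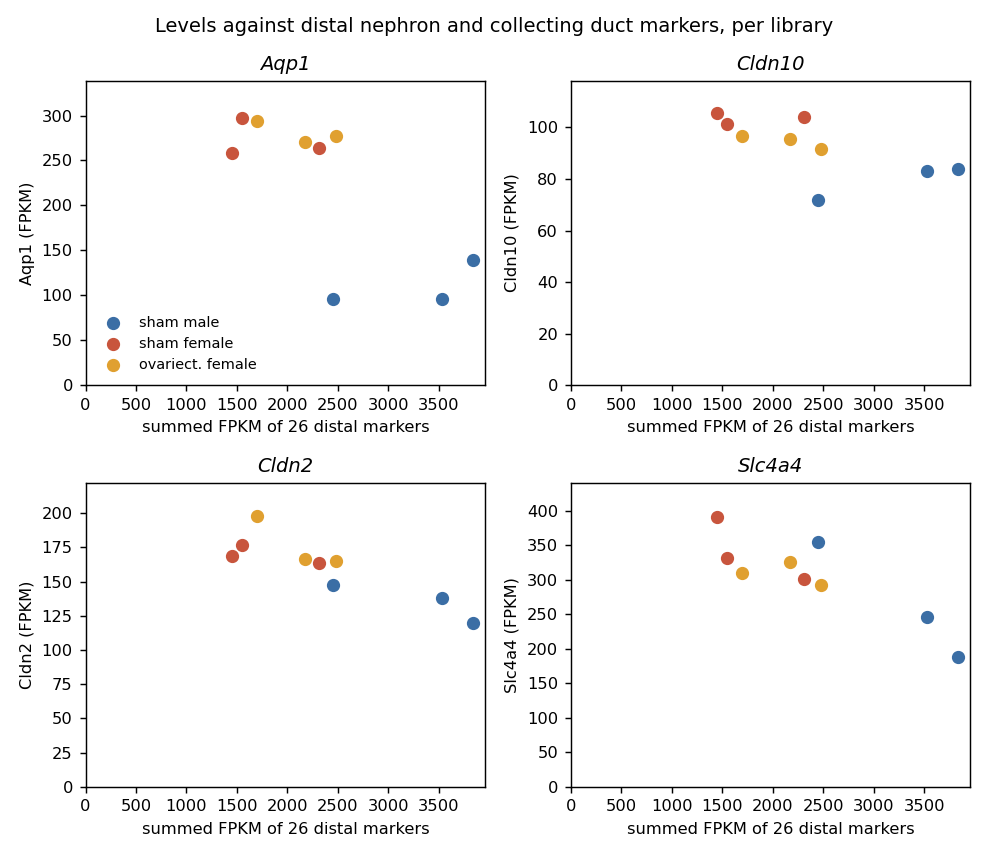
Level of Aqp1, Cldn10, Cldn2 and Slc4a4 in FPKM (y axis, from 0) against the summed FPKM of 26 distal nephron and collecting duct markers (x axis, from 0), 1 point per library, coloured by group. At a marker sum of 2313 to 2480 FPKM, where all groups have a library, Aqp1 was 95.6 in the male and 264 and 277 in the females.

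That stretch of the plot holds male replicate 1, sham female replicate 1 and ovariectomized female replicate 1. Among these 3 libraries Cldn10 was at 71.9, 104 and 91.8 FPKM, Cldn2 at 147, 164 and 165, and Slc4a4 at 356, 301 and 292. Aqp1, Cldn10 and Cldn2 were thus lowest in the male at a like marker sum and Slc4a4 was highest there. With 1 library of each group this is a description without a test.

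The wider transport machinery was followed in 9 lists of 120 further genes, of which 119 were in the table and 89 were tested. In sham females against males 5 of the 89 (5.62%) were called higher and 18 (20.2%) lower, against 4.28% and 4.87% of all genes. Between the female groups 0 were called in limma. In ovariectomized females against males 6 (6.74%) were higher and 11 (12.4%) lower, against 5.63% and 6.19%. Median differences over the 89 were -0.24, 0.03 and -0.27. Of the 18 lower in sham females, 6 are also in the marker lists of other cell types. These 6 are among the distal markers averaged into the covariate, so their smaller differences with it were partly built in. With the distal marker covariate 1 of the 23 calls remained, that of Pth1r. Without male replicate 2, male replicate 3 or sham female replicate 2 the 23 calls became 4, and without sham female replicate 3 or ovariectomized female replicate 3 they became 9 and 15. The 17 calls of ovariectomized females against males became 6 without male replicate 2 or 3, and 11, 4 and 7 without ovariectomized female replicate 1, 2 or 3. Pth1r in sham females and Chp1 and Atp6v0c in ovariectomized females were the list genes called against males in all 20 alternatives.

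**Figure D4:**
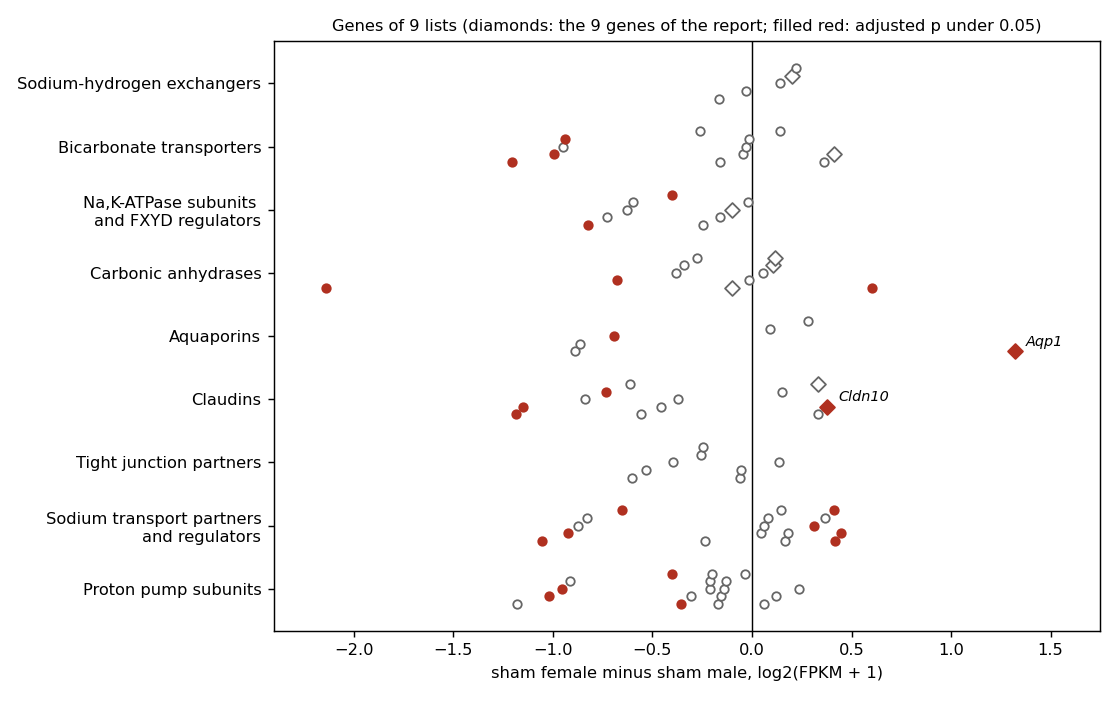
Difference between sham females and sham males on the log2(FPKM + 1) scale (x axis) for every tested gene of the 9 lists (y axis), with diamonds for the 9 genes described here and filled red symbols for an adjusted p under 0.05. Red symbols lie mostly to the left, down to -2.14 for Car3, while Aqp1 at 1.32 is farthest to the right.

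Genes that assist NHE3 or regulate proximal transport held 4 of the 5 genes called higher in sham females. Chp1, an essential cofactor of the sodium-hydrogen exchangers, was at 52.4, 57.1 and 57.7 FPKM in sham males, 73.6, 76.5 and 73.7 in sham females and 77.0, 76.5 and 75.9 in ovariectomized females. Males were below all females, with differences of 0.41 (adjusted p = 0.00216 by limma) and 0.45 (adjusted p = 0.00102). Pth1r, the parathyroid hormone receptor whose signal restrains NHE3 and phosphate uptake, was at 226, 249.9 and 234 FPKM in males, 317, 332 and 322 in sham females and 301, 311 and 305 in ovariectomized females. It too separated the males from all females, at 0.45 (adjusted p = 0.000995) and 0.37 (adjusted p = 0.00248) by limma.

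Pdzk1, a brush border scaffold and the most abundant gene of that list, was higher by 0.31 in sham and 0.40 in ovariectomized females (adjusted p = 0.0332 and 0.00945 by limma), from 521 ± 29.1 FPKM in males (SD, n = 3). The NHE3 regulatory factor gene Slc9a3r1 was called in ovariectomized females at 0.22 (adjusted p = 0.0323) and not in sham females at 0.17 (adjusted p = 0.0949). Dpp4, a peptidase that binds NHE3 in the brush border, was higher in sham females by 0.41 (adjusted p = 0.0456). Of 20 alternatives, the Pdzk1 calls held in 10 for sham and 19 for ovariectomized females, and those of Slc9a3r1 and Dpp4 in 9 each. All 3 genes called lower in sham females had smaller differences with the distal marker covariate. These were Stk39, a kinase that activates salt cotransporters, at -1.05 (adjusted p = 0.0302 by limma), the potassium channel gene Kcnq1 at -0.93 (adjusted p = 0.0395) and Wnk4, a kinase of distal salt transport, at -0.65 (adjusted p = 0.0126). With the covariate they were at -0.16, -0.06 and -0.20 (adjusted p = 0.881, 0.951 and 0.511 by limma). In ovariectomized females Wnk4 was lower at -0.47 (adjusted p = 0.0412), and Agtr1a, an angiotensin receptor gene, was lower at -0.45 (adjusted p = 0.0255 by limma), with -0.24 in sham females (adjusted p = 0.185). The list had 4 higher and 3 lower calls of 17 tested in sham females and 4 higher and 2 lower in ovariectomized females. Shares over all genes were 4.28% and 4.87% in sham and 5.63% and 6.19% in ovariectomized females.

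Among further sodium-hydrogen exchangers 0 of 4 tested were called in limma in any comparison. Of all genes 4.28% were called higher and 4.87% lower in sham females against males, and 5.63% and 6.19% in ovariectomized females. Between the female groups the shares were 0% and 0.0076%. Slc9a3 made up 44.3% ± 3.13, 47.8% ± 1.68 and 46.2% ± 0.199 of the exchangers' summed FPKM in males, sham and ovariectomized females (SD, n = 3). Slc9a8, an exchanger of internal membranes, was at 12.4 ± 0.401, 14.7 ± 1.57 and 10.7 ± 0.433 FPKM in the same order. Its difference between ovariectomized and sham females was -0.42 (adjusted p = 0.212 by limma).

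Further bicarbonate transporters had 3 of 11 called lower in sham females, against 4.87% of all genes. Slc26a4, the chloride bicarbonate exchanger pendrin of intercalated cells, was at -1.20 (adjusted p = 0.0254 by limma), Slc4a3, an anion exchanger, at -0.996 (adjusted p = 0.0122) and Slc4a9, an exchanger of intercalated cells, at -0.94 (adjusted p = 0.0450). Only Slc4a3 was also called in ovariectomized females, at -0.84 (adjusted p = 0.0219). The share of Slc4a4 in the family's summed FPKM was 58.4% ± 7.81 in males, 72.2% ± 3.15 in sham females and 69.1% ± 2.79 in ovariectomized females (SD, n = 3).

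Among pump subunits and their FXYD regulators all 8 further genes tested had negative differences in sham females, and 2 were called, against 4.87% of all genes called lower. Their median difference was -0.50, against -0.09 over all genes. Fxyd4, a regulator of the pump in the collecting duct, was at -0.83 (adjusted p = 0.0307 by limma) in sham and -0.75 (adjusted p = 0.0379) in ovariectomized females. Fxyd2, the gamma subunit gene, was the most abundant of the list at 2937 ± 318, 2620 ± 220 and 2867 ± 210 FPKM (SD, n = 3) and was not called.

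Car3 showed the largest difference of the 9 lists. It encodes a cytosolic carbonic anhydrase of low activity that is abundant in muscle and fat, and stood at 75.0, 23.9 and 53.9 FPKM in sham males, 9.43, 8.47 and 11.4 in sham females and 20.2, 18.8 and 17.2 in ovariectomized females. No groups overlapped, with the males highest and the sham females lowest. The differences were -2.14 (adjusted p = 0.00452 by limma) for sham and -1.26 (adjusted p = 0.0407) for ovariectomized females from males, and 0.88 (adjusted p = 0.701) between the female groups. The call held in 19 of 20 alternatives for sham and in 7 of 20 for ovariectomized females. Car5b, the mitochondrial enzyme, was 0.60 higher in sham females (adjusted p = 0.0268) and Car15, a surface enzyme, was lower at -0.68 (adjusted p = 0.0426). Car13, a cytosolic enzyme at group means of 0.967 to 1.98 FPKM, was called in ovariectomized females at -0.61 (adjusted p = 0.0394). These calls held in 14 of 20 alternatives for Car5b, 9 of 20 for Car15 and 9 of 19 for Car13. Of all carbonic anhydrase FPKM, Car2 made up 33.4% ± 2.87, 39.9% ± 2.42 and 39.2% ± 0.543 in males, sham and ovariectomized females (SD, n = 3). In the same order the share of Car4 was 14.2% ± 4.57, 16.6% ± 1.84 and 14.7% ± 1.85, and that of Car14 13.6% ± 0.851, 14.0% ± 0.658 and 13.9% ± 0.637.

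In sham females 1 of 5 further aquaporins and 3 of 10 further claudins tested were called lower, against 4.87% of all genes. Aqp3 differed by -0.69 (adjusted p = 0.0173 by limma) and -0.57 (adjusted p = 0.0320) in sham and ovariectomized females. Aqp11, an aquaporin of internal membranes in the proximal tubule, was higher in ovariectomized females by 0.38 (adjusted p = 0.0146), and stood at 0.28 in sham females (adjusted p = 0.0568). In sham females Cldn7 and Cldn8, which are claudins of the distal nephron and collecting duct, were at -1.18 and -1.15 (adjusted p = 0.0323 and 0.0226 by limma), and Cldn16, of the thick ascending limb, at -0.73 (adjusted p = 0.0261). Cldn12 was called higher in ovariectomized females, at 0.42 (adjusted p = 0.0281). Of 10 further claudins tested, 8 had differences below 0 in sham females, with a median of -0.59 against -0.09 over all genes. Cldn2 and Cldn10 were above 0.

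Tight junction partners had no call in sham females by limma, and 1 of 8 in ovariectomized females: Marveld2, which encodes tricellulin, at -0.49 (adjusted p = 0.0216). Of all genes 4.28% were called higher and 4.87% lower in sham females, and 5.63% and 6.19% in ovariectomized females. Proton pump subunits, of which several are specific to intercalated cells, had 4 of 18 called lower in sham females, against 4.87% of all genes. Of these Atp6v0d2 and Atp6v1b1, known for intercalated cells, were at -1.02 and -0.95 (adjusted p = 0.0440 and 0.0340 by limma), and Atp6v0b and Atp6v0e, which are widely expressed, at -0.35 and -0.40 (adjusted p = 0.0389 and 0.0368). In the order named, these calls held in 9, 14, 8 and 9 of 20 alternatives. Atp6v0c, the most abundant of the list, was lower in ovariectomized females than in males at -0.33 (adjusted p = 0.00572 by limma), as were Atp6v0e at -0.42 (adjusted p = 0.0267) and Atp6v0b at -0.33 (adjusted p = 0.0429). Intercalated cell markers summed to 155 to 217 FPKM in males, 65.8 to 119 in sham females and 77.8 to 136 in ovariectomized females, and principal cell markers to 245 to 343, 128 to 200.2 and 149 to 225. The part of these cells in the lower list genes was not tested beyond the covariate, which is itself built from markers that include Atp6v0d2 and Atp6v1b1.

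Proximal tubule markers themselves were higher in females for some genes. Of 10, 5 were called higher in sham and 4 in ovariectomized females, against 4.28% and 5.63% of all genes, and none was called lower. Differences were below 0 for 2 of the 10 in both comparisons with males. These were Slc5a2, at -0.40 in sham and -0.51 in ovariectomized females, and Slc5a12, at -0.12 and -0.28. Summed levels were 5613 to 6605 FPKM in males, 6562 to 7470 in sham females and 7090 to 7954 in ovariectomized females. The median difference of the list was 0.31 in both comparisons with males, near those of Cldn2 and Cldn10 and far below that of Aqp1. Its largest member difference in sham females was that of Slc13a3, a dicarboxylate transporter, at 1.30 (adjusted p = 0.00174 by limma).

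Genes with profiles most like the 3 called genes were sought by the mean absolute difference of centred log2(FPKM + 1) over the 9 libraries, and 3 are named for each. For Aqp1 these were Slc6a4 at 0.0841, Cyp2j11 at 0.0877 and Bmp1 at 0.0900, against a mean absolute deviation of 0.595 for Aqp1 itself. Slc6a4 and Bmp1 are low, at group means of 1.84 to 6.43 and 1.35 to 4.73 FPKM, while Cyp2j11 was at 44.5 FPKM in males and 111 and 125 in sham and ovariectomized females. Nearest to Cldn10 were Rfk (0.0404), Hadha (0.0409) and Acadm (0.0421), and nearest to Cldn2 were Pigg (0.0398), Prepl (0.0516) and Aldh8a1 (0.0532). These are likenesses over libraries that also share the group structure.

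Scaling between libraries moved the split of calls over all genes. As deposited, 46.8% of called genes were higher in sham females (563 higher, 641 lower) and 47.7% in ovariectomized females (741 and 814). After median-ratio scaling this became 64.2% (845 and 471) and 67.6% (1024 and 490), and after quantile normalization 59.6% (695 and 471) and 58.9% (767 and 536). Aqp1 and Cldn10 stayed called in sham females under both, and Cldn2 was called there under median-ratio scaling at 0.42 (adjusted p = 0.0446 by limma).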

How the data were processed

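RNA of 9 libraries was sequenced from strand-specific NEBNext Ultra II Directional libraries, per the labels' protocols. STAR 2.6.0c and RSEM are named in the submitters' processing notes. The genome build, the annotation and the version of RSEM are not stated there. The authors deposited FPKM per gene and library, with no scaling between libraries stated, and these were used as deposited. Of the unnamed side columns, 4 were not used. No counts were given, so depth was estimated from steps of low values of single-transcript genes (within 0.0055 FPKM), and no counting interval was computed.

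Genes with at least 1 FPKM in at least 3 libraries entered limma 3.58.1 in R 4.3.3, as log2(FPKM + 1) with a pseudocount of 1, 1 mean per group, a trended variance, two-sided tests and Benjamini-Hochberg adjustment. A fold change on this scale understates that of low genes. Python 3.11.15 and matplotlib 3.10.9 drew the figures. Groups came from the labels. Deviations from the group means correlated at 0.174 to 0.347 in the 3 same-numbered pairs of sham and ovariectomized female libraries. In the 6 differently numbered ones they correlated at -0.325 to 0.054. The numbers were thus treated as a possible pairing of the female libraries, from the data and not from the labels. Differently numbered male and sham female libraries reached 0.282, so values of this size alone do not show a pair. A fit of these groups with the number as a block was added after the data were seen. The 9 genes, the lists and the tests were chosen with earlier results of these data known. Named are the 9 genes, up to 4 called genes of each list per comparison with the largest change, each list's most abundant gene, the markers and the genes of nearest profile. Of others, Slc9a8, Pllp and list genes beyond these were named after their values were seen. Alternatives changed the pseudocount, filter, scaling, samples, prior, replicate block, a distal marker covariate and each library in turn. A list gene that this rule names is not reported here, though it stays in the tests and counts.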

Additional observations from a re-analysis of the deposited data

How the results depend on the processing

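Of the differences of 9 genes in 3 comparisons under 20 alternatives, 483 kept their direction and side of the threshold, 27 lost a call, 7 gained a call and 23 changed sign, none of these while called. Sign changes of ovariectomized females against males were Slc9a3 at 0.0249 and Atp1b1 at 0.0574 with median-ratio scaling, and Atp1b1 at 0.0414 and Car2 at -0.0994 with quantile normalization. Against sham females, quantile normalization gave Aqp1 at -0.0520 and Cldn2 at -0.000969. With the distal marker covariate, sham females against males had Slc4a4 at -0.0764, Atp1b1 at 0.00273 and Car2 at -0.0928. With it, ovariectomized females against males had Slc4a4 at -0.0557, Atp1b1 at 0.0356, Car2 at -0.0973 and Car4 at 0.144, and against sham females Slc4a4 at 0.0207.

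Leaving out each library in turn, signs changed for sham females against males in Car4 -0.125 to 0.253, Car2 -0.0181 to 0.203, and for ovariectomized females against males in Slc9a3 -0.119 to 0.0152, Car2 -0.0842 to 0.137, Car4 -0.339 to 0.0384, and for ovariectomized against sham females in Car2 -0.125 to 0.00654, Car14 -0.118 to 0.0321, Cldn2 -0.0334 to 0.097 (lowest to highest log2 difference).
The number of the 9 genes called in sham females against males was 2, became 1 with the distal marker covariate and ranged from 2 to 5 with a library left out. In ovariectomized females against males it was 3, became 1 without a filter, with quantile normalization, with 2 groups only, with an untrended prior, with the replicate block and with the covariate, and ranged from 1 to 4 with a library left out.

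Over all genes, 1204 were called in sham females against males, 739 without a filter, 747 with 2 groups only, 240 with the covariate and 561 to 1579 with a library left out. Ovariectomized females against males gave 1555, 648 with the covariate and 877 to 1631 with a library left out. Between the female groups 1 was called, 20 with a pseudocount of 5, 2 without a filter, 13 with 2 groups only, 3 with an untrended prior, 0 with median-ratio scaling, quantile normalization, a common sum without mitochondrial genes, the replicate block or the covariate, and 0 to 9 with a library left out. Of the list genes, 23 were called in sham females against males, 7 without a filter, 12 with 2 groups only, 1 with the covariate and 4 to 29 with a library left out. In ovariectomized females against males 17 were called, 8 without a filter, 3 with the covariate and 4 to 20 with a library left out. The causes were not tested, except that fewer samples enter when a library or group is left out.

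Between males and females the replicate numbers are not shown to pair the libraries: deviations of same-numbered ones correlated at -0.125 to 0.280 for sham and -0.0299 to 0.0749 for ovariectomized females. Those of differently numbered ones correlated at -0.356 to 0.282 and -0.191 to 0.163. With the replicate block over all groups 1110, 0 and 1524 genes were called in the 3 comparisons, and of the 9 genes Aqp1 and Cldn10 in sham females and Aqp1 in ovariectomized females against males. In ovariectomized females Cldn2 then had an adjusted p = 0.0595 and Cldn10 an adjusted p = 0.0519 by limma. In the fit of the female groups alone with the replicate block, an alternative chosen after seeing the data, 6 genes were called and 0 of the 9, whose adjusted p-values ran from 0.182 to 0.778 by limma. Precision differed between genes, with an SE of 0.197 for Slc4a4 and 0.0685 for Cldn10 in each comparison.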
